A study of Mus musculus with 4 samples.

Results

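The nuclear-encoded subunits of the mitochondrial respiratory chain were followed after depletion of Cnot1 in mouse embryonic stem cells (ESCs). Members were chosen by gene symbol alone, as every gene of the count table named as a subunit in the Nduf, Sdh, Uqcr, Cox4 to Cox8 or Atp5 series, which gave 85 of the 50559 genes listed: 37 of complex I, 4 of complex II, 8 of complex III, 19 of complex IV and 17 of complex V. The complex was read from the symbol, so that Ndufa4, which biochemical work now places in complex IV, counted with complex I. RNA-seq had been made from E14 mouse ESCs, grown on gelatin with serum replacement and leukemia inhibitory factor, and transfected with an siRNA against Cnot1 (siCnot1) or with a non-targeting siRNA (siNT). The siRNA was used at 150 nM for 48 h, and each group had 2 libraries, described as independent biological replicates. Poly(A)+ RNA was sequenced, and all 4 libraries came from a single cell line. The sources used here do not state which Cnot1 siRNA sequence these libraries received, and the labels do not say whether the cells carried the Mervl-driven tdTomato reporter that the study's methods describe.

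CNOT1 is the scaffold of CCR4-NOT, the complex that shortens the poly(A) tails of mRNAs and so starts their decay. The respiratory chain lies in the inner mitochondrial membrane: complex I takes electrons from NADH and complex II from succinate, both pass them through ubiquinone to complex III, cytochrome c carries them on to complex IV, where oxygen is reduced, and complex V makes ATP from the proton gradient that results. Most of its subunits are encoded in the nucleus and imported as proteins, while a small core is encoded by mitochondrial DNA. Pluripotent ESCs draw much of their ATP from glycolysis but also respire.

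Cnot1 itself stood at 912 and 985 normalized CPM (counts scaled to a common library size by TMM) in siNT and at 185 and 192 in siCnot1, a log2 fold change of -2.33 (standard error, SE, 0.0587, adjusted p = 2.37e-18, edgeR). The libraries held 32135824 to 32557440 counts on genes. Markers of ESCs were present in every library, and their summed level was 7692 to 7964 normalized CPM in siNT and 6392 to 6699 in siCnot1, with 8 of 10 markers lower. Of 11 genes typical of 2-cell-like cells, 10 were higher, and their sum rose from 95.8 and 97.4 to 248 and 258. Fibroblast or feeder markers summed to 17.2 to 20.4 in siNT and 25.1 to 29.1 in siCnot1, with 2 of 4 tested genes higher and Col3a1 and Dcn at 0 in every library. Trophectoderm markers summed to 96.5 to 99.5 and 69.7 to 75.6, primitive endoderm markers to 8.48 to 10.7 and 13.8 to 14.6, and early mesoderm or neural markers to 31.7 to 32.6 and 28.8 to 30.5. In bulk RNA, fewer cells of a type and less RNA per cell cannot be told apart, and the part of these shifts in the values of the chain was not tested.

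The mRNAs of the chain changed little. Of the 85 members, 81 had enough counts to be tested; 15 fell and 3 rose at an adjusted p under 0.05, and 63 did not pass the threshold. Among all 18144 genes tested, 14.7% fell and 15.0% rose, against 18.5% and 3.70% of the members. Log2 fold changes of the members ran from -0.42 (Atp5h) to 0.40 (Cox6b2), that is from 0.746 to 1.32 of the siNT level. None of the 81 passed the limits the study used for a changed gene, an unadjusted p of at most 0.05 with a log2 fold change of 1 or more in size, which 7.98% of all tested genes passed. The median log2 fold change was -0.10 over the members and 0.0084 over all tested genes. For 74 of the 81 members the 95% confidence interval of the change lay within 1.5-fold in either direction. The intervals of Ndufb1, Ndufs5, Cox4i2, Cox7b2, Cox8c, Cox6b2 and Atp5k reached past 1.5-fold. These intervals and p-values rest on 2 libraries per group. Their spread was not that of each gene alone, as the quasi-likelihood fit draws it partly from all tested genes.

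**Figure D1:**
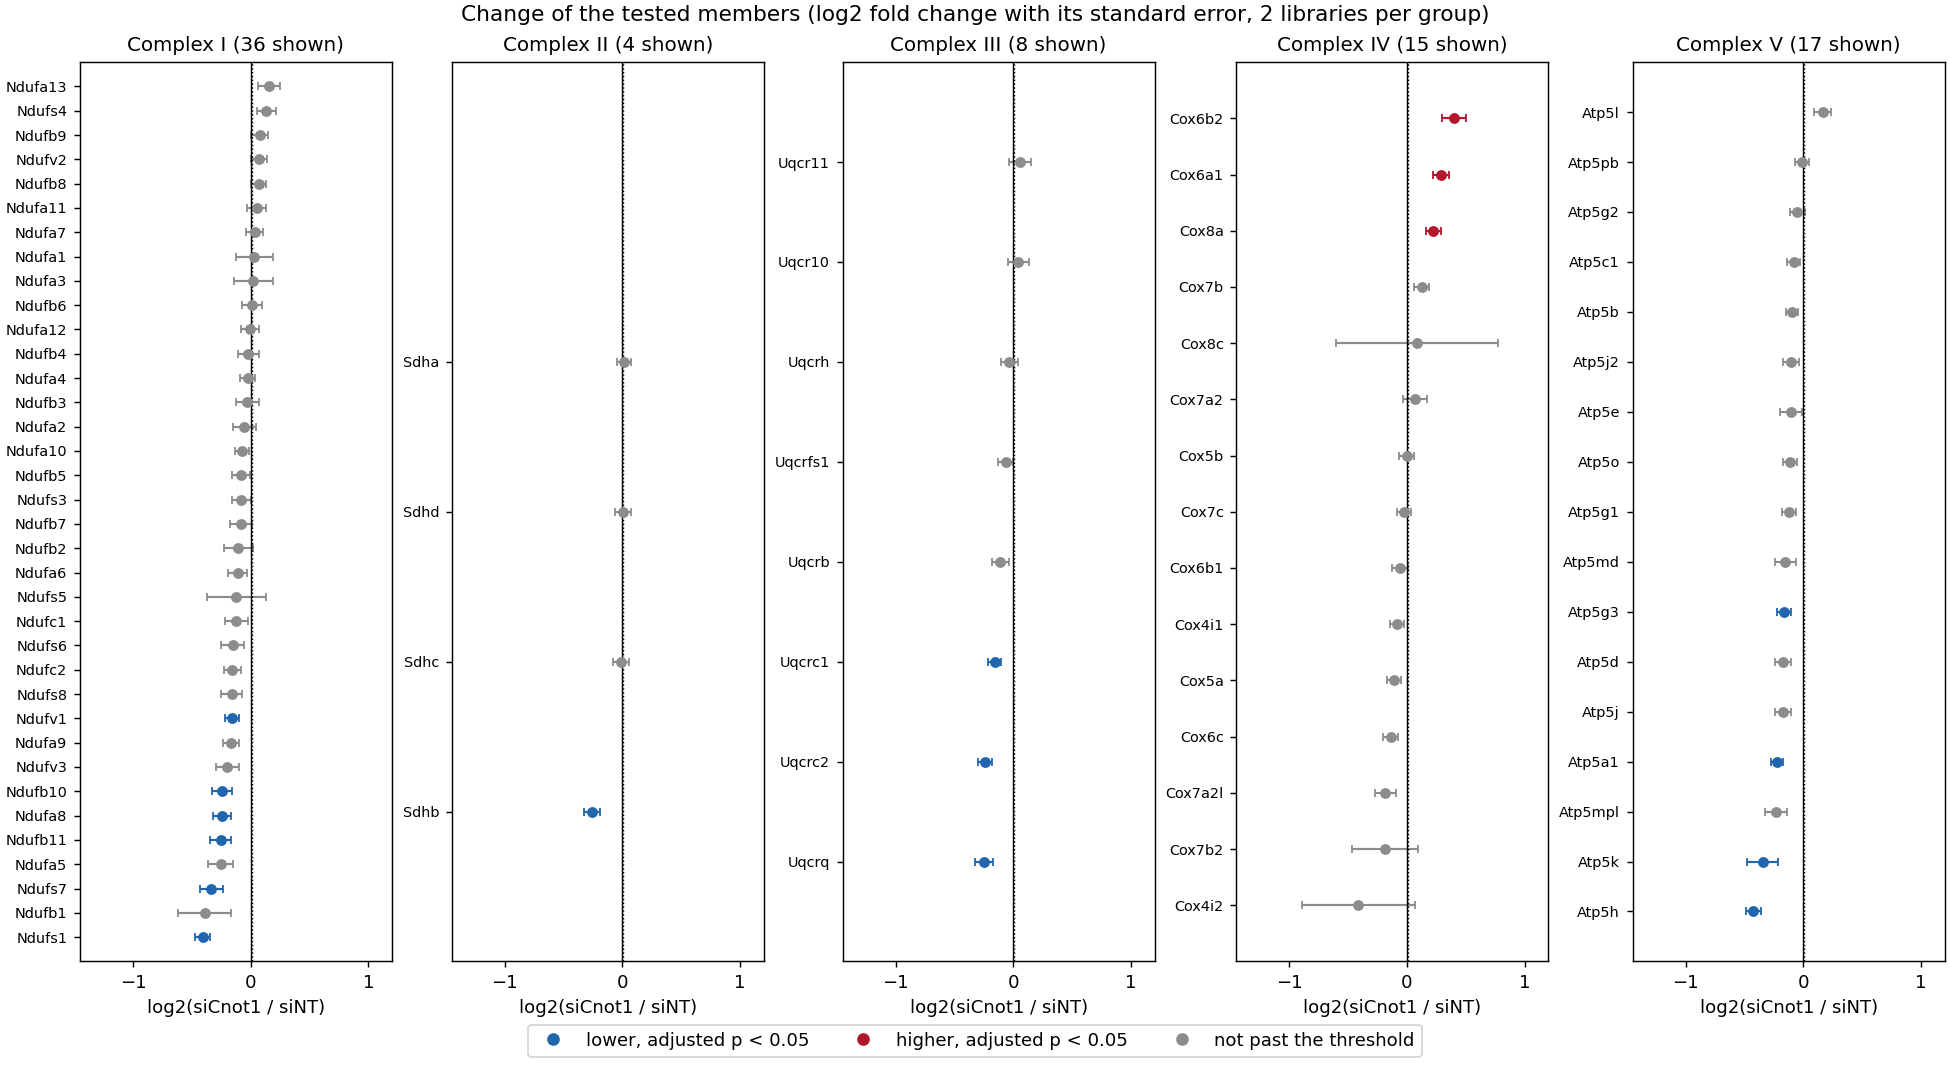
Log2 fold change (siCnot1 over siNT) of 80 of the 81 tested members by complex, with points for the estimates, bars for 1 standard error and a dotted line at the median of all tested genes. All estimates lie between -0.42 and 0.40, with called members below 0 in complexes I, II, III and V and above 0 in complex IV.

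The sign of the members' median depended on how libraries were scaled. edgeR's TMM factors were 0.964 in both siNT libraries and 1.04 and 1.03 in the siCnot1 libraries. With library totals in place of TMM the median of all tested genes moved from 0.0084 to 0.12 and that of the members from -0.10 to 0.01, and 2 members (2.47%) fell while 8 (9.88%) rose, against 8.64% and 22.0% of all tested genes under that scaling. The distance of the members' median from that of all genes was -0.10 under either scaling, but a change of scaling moves all genes nearly alike. Leaving out 1 library at a time gave distances from -0.15 (without siNT replicate 2) to -0.056 (without siCnot1 replicate 1). Both siCnot1 libraries lay below both siNT libraries for 39 of the 81 members and above them for 8, where 31.2% and 32.7% of all tested genes did so. With library totals, an alternative chosen after the data were seen, these counts were 16 (19.8%) and 20 (24.7%), against 21.0% and 43.4% of all tested genes. Read with each library's own total, the members together took 1.07% and 1.02% of all counts in siNT and 1.04% and 1.06% in siCnot1, and the groups overlapped.

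The members were short and abundant. Their median exon length was 772 bases, against 3361 bases for all tested genes, and 70 of the 81 were in the shortest quartile of genes. In that quartile the median log2 fold change over all genes was -0.11, and 16.4% fell and 6.39% rose. By level, 53 of the 81 members were in the highest quartile of genes, where 34.5% of all genes fell and 13.5% rose. Of these 53 members, 12 fell and 2 rose. In the same quartile 4.98% of all genes changed by more than 0.5 on the log2 scale, and none of the 81 members did. The bars for genes called in each direction set the members beside these quartiles.

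**Figure D2:**
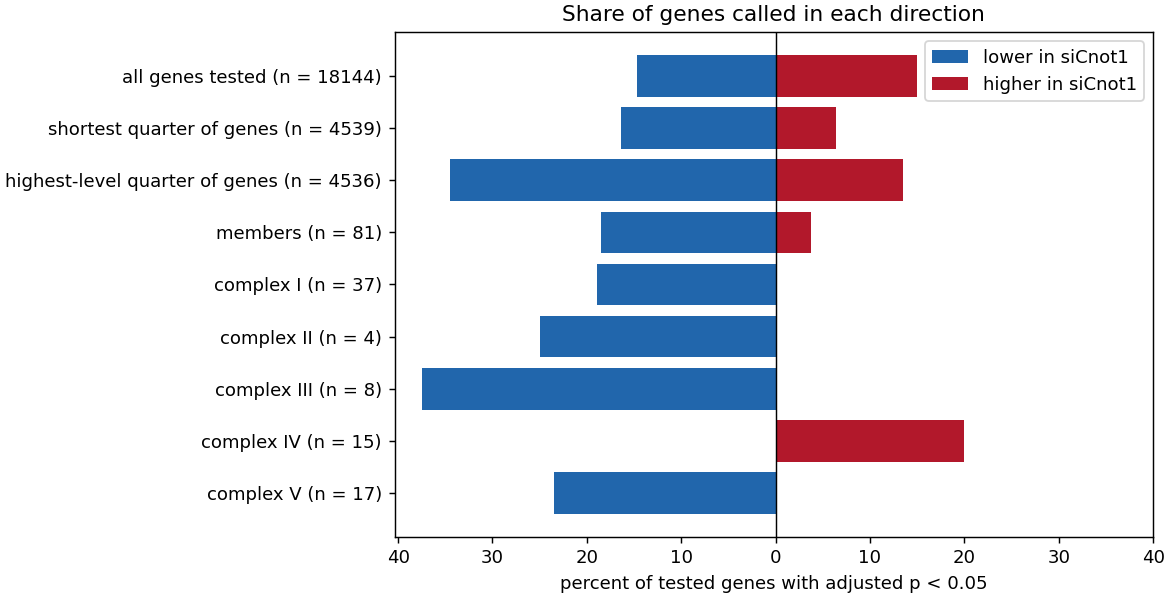
Percent of tested genes with an adjusted p under 0.05 that were lower (left) or higher (right) in siCnot1, for all genes, for the shortest and the highest-level quartile of genes, for all members and for each complex. The members stand at 18.5% lower and 3.70% higher, and complex IV is the set with calls on the higher side alone.

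RefSeq promoters (GRCm38.p6, 250 bases before to 50 after the start of the gene) were found for 69 of the 85 members. Many respiratory genes are known targets of NRF1 and of the ETS factor GABP, and YY1 also binds some of them. The NRF1 motif GCATGCGC was present on either strand in 10 of the 69 (14.5%), against 2.78% of all 27025 promoters and 4.86% of the promoters of tested genes. This motif overlaps its own reverse complement, and a promoter was counted once. The ETS motif CCGGAAG was present in 17 (24.6%), against 9.08% and 16.2%, and the YY1 motif AAGATGGCG in 7 (10.1%), against 1.49% and 2.73%. At least 1 of the 3 motifs was present in 40.6% of the members' promoters, against 22.0% of the promoters of tested genes. It was present in 6 of 10 promoters of members that fell, in 2 of 3 of members that rose and in 20 of 54 of members that passed neither way. Whether motifs differed with the call was not tested. A match is a string of letters, and binding was not measured.

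To show the promoters of called members, the 120 bases before the start site are given for the 4 that hold an NRF1 or ETS motif there and fell and for 1 that rose, 5′ to 3′ on the gene's strand, with these motifs in capitals. Their GRCm38.p6 positions are Ndufa8 chr2:36049339-36049458 (minus strand), Sdhb chr4:140961151-140961270 (plus strand), Cox6a1 chr5:115348959-115349078 (minus strand), Atp5h chr11:115419920-115420039 (minus strand) and Atp5k chr5:108434400-108434519 (minus strand).
Ndufa8: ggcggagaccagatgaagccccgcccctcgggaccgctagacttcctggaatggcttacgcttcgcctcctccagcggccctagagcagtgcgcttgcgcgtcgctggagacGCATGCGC
Sdhb: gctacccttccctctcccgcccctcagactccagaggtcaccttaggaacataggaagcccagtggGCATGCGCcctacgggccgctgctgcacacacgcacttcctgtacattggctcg
Cox6a1: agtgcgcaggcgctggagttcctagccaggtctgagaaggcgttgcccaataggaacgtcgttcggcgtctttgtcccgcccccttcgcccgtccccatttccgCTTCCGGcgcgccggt
Atp5h: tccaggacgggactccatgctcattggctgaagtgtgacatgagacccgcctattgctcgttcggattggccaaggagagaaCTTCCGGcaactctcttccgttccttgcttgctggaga
Atp5k: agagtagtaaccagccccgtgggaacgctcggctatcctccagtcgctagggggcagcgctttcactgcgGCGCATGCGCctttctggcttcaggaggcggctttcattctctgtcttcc
In Sdhb the capitals mark NRF1, and Cox6a1 and Atp5h each hold the reverse complement of the ETS motif. Ndufa8 ends in the NRF1 motif, next to the start site, and Atp5k holds it in both orientations on overlapping letters. Among the sequences shown, the ETS motif stood before Atp5h, which fell, and before Cox6a1, which rose.

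Complex I, the NADH dehydrogenase, had 37 tested members, of which 7 fell (18.9%), none rose and 30 did not pass. Of all tested genes 14.7% fell and 15.0% rose. The median of the complex I members was -0.08. Per length, levels ran from 6.88 normalized CPM per kb of exon (FPKM) in Ndufs5 to 232 in Ndufa4, with Ndufb4 at 110 and Ndufb6 at 102 next. Ndufs1 is the large iron-sulfur subunit of the arm that takes electrons from NADH (GRCm39 chromosome 1, 63182751 to 63215981, minus strand). It stood at 188 and 173 normalized CPM in siNT and at 136 and 136 in siCnot1, so the groups did not overlap. It fell to 0.754 of the siNT level (log2 fold change -0.41, SE 0.0609, adjusted p = 1.90e-05, edgeR).

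Ndufs7, which carries the last iron-sulfur cluster before ubiquinone, had 39.4 and 38.9 normalized CPM in siNT and 28.3 and 33.8 in siCnot1. Its log2 fold change was -0.33 (SE 0.0987, adjusted p = 0.0126). Both siCnot1 values lay below both siNT values. Ndufv1, the subunit that binds NADH, was named after its values were seen; it had 170 and 161 in siNT and 146 and 150 in siCnot1, a log2 fold change of -0.16 (adjusted p = 0.0436). Ndufv2, Ndufs3 and Ndufs8, also named after their values were seen and also subunits of the electron-transferring arm, had log2 fold changes of 0.07, -0.08 and -0.16 and did not pass.

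Of the 30 accessory subunits of complex I, Ndufa4 included, 3 fell and none rose, beside 14.7% and 15.0% of all tested genes. The accessory subunits were set apart as a group after the values were seen. Ndufa8, which sits on the intermembrane side, had 72.4 and 70.1 normalized CPM in siNT and 57.7 and 62.6 in siCnot1, a log2 fold change of -0.24 (adjusted p = 0.0156). Ndufb11, a subunit of the membrane arm, had 43.6 and 45.3 in siNT and 36.8 and 37.7 in siCnot1, a log2 fold change of -0.25 (adjusted p = 0.0299). For 29.0% of its exon bases Ndufb11 overlaps Rbm10 on the other strand, which had 3808 to 4239 counts per library, and whether reads were counted by strand is not given in the sources used here. Ndufb11 also has 1 near-identical pseudogene. Ndufb10, also of the membrane arm and named after its values were seen, had 62.8 and 60.8 in siNT and 47.1 and 57.4 in siCnot1, a log2 fold change of -0.24 (adjusted p = 0.0405). Its siCnot1 libraries differed from each other by more than its siNT libraries did.

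The 3 complex I members with the highest FPKM kept their level within narrow bounds. Ndufa4 had 120 and 112 normalized CPM in siNT and 116 and 113 in siCnot1, with a log2 fold change of -0.03 (95% confidence interval -0.16 to 0.11). The groups overlapped, and with Ndufa4 placed in complex IV no count of calls changed. The log2 fold change was -0.02 for Ndufb4 (-0.20 to 0.16) and 0.01 for Ndufb6 (-0.16 to 0.18), both accessory subunits. Ndufs5, at 2.93 to 4.37 normalized CPM, and Ndufb1, at 3.19 to 4.69, were the lowest of the complex per length, and neither passed. Ndufs5 has 1 near-identical pseudogene. For 23.3% of its exon bases Ndufb1 overlaps Cpsf2 on the other strand, which had 4185 to 4717 counts per library. How shared reads were counted is not given in the sources used here, so both levels are uncertain.

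Complex II, succinate dehydrogenase, has all its subunits encoded in the nucleus, and 1 of its 4 genes fell while none rose. The shares of all tested genes that fell and rose were 14.7% and 15.0%. Sdhb, the iron-sulfur subunit (GRCm39 chromosome 4, 140688582 to 140706509, plus strand), had 91.9 and 89.7 normalized CPM in siNT and 73.8 and 78.0 in siCnot1. Its log2 fold change was -0.26 (SE 0.0676, adjusted p = 0.00522), and its promoter is among those shown above with an NRF1 motif. The other three stayed close to their siNT level in these libraries. Sdha, the flavoprotein that oxidizes succinate, had 316 and 305 in siNT and 300 and 327 in siCnot1, a log2 fold change of 0.01 (95% confidence interval -0.10 to 0.13). Sdhc and Sdhd, the membrane anchors, had log2 fold changes of -0.01 (-0.15 to 0.13) and 0.0015 (-0.14 to 0.14). Per length the 4 genes were within a narrow range, from 77.2 FPKM for Sdhb to 109 for Sdha.

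Complex III, the cytochrome bc1 complex, had 8 members, of which 3 fell (37.5%), none rose and 5 did not pass. Of all tested genes 14.7% fell and 15.0% rose. The median of the complex III members was -0.09. Both core proteins fell. Uqcrc2 had 179 and 178 normalized CPM in siNT and 152 and 150 in siCnot1 (log2 fold change -0.24, SE 0.0579, adjusted p = 0.00259). Uqcrc1, the member of the complex with the highest level at 190 FPKM, had 343 and 322 in siNT and 294 and 302 in siCnot1 (log2 fold change -0.16, adjusted p = 0.0375). For 26.7% of its exon bases Uqcrc2 overlaps Pdzd9 on the other strand, which had 35 to 42 counts per library.

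Uqcrq, a small accessory subunit, had 83.8 and 83.0 normalized CPM in siNT and 64.6 and 75.7 in siCnot1, a log2 fold change of -0.25 (adjusted p = 0.0153). The siCnot1 libraries again stood apart from siNT and from each other. The other small subunits and the Rieske iron-sulfur protein Uqcrfs1 (-0.07) did not pass. Uqcrb, at 166 FPKM, had a log2 fold change of -0.11 (adjusted p = 0.278) and Uqcrh, the hinge protein, at 138 FPKM, one of -0.03 (adjusted p = 0.772).

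Complex IV, cytochrome c oxidase, held the 3 members that rose with TMM scaling. Of its 15 tested members 3 rose, none fell and 12 did not pass, and their median was -0.03. Among all tested genes 15.0% rose and 14.7% fell. With library totals, 4 members of complex IV, 3 of complex I and 1 of complex V rose. Without a filter on low counts, no member of any complex was called higher, beside 4.30% of all genes in that fit. Cox6b2 encodes a subunit best known from testis and has a broadly expressed paralogue, Cox6b1. Cox6b2 (GRCm39 chromosome 7, 4754791 to 4756093, minus strand) had 35.5 and 30.8 normalized CPM in siNT and 48.1 and 39.5 in siCnot1. It rose to 1.32 of the siNT level (log2 fold change 0.40, SE 0.103, adjusted p = 0.00463).

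Cox6a1, the isoform of subunit VIa found in most tissues, had 124 and 119 normalized CPM in siNT and 159 and 138 in siCnot1. Its log2 fold change was 0.29 (SE 0.0678, adjusted p = 0.00219). Cox8a, the general isoform of subunit VIII, had 116 and 105 in siNT and 132 and 126 in siCnot1, a log2 fold change of 0.22 (adjusted p = 0.0111). For Cox6b2, Cox6a1 and Cox8a every siCnot1 value lay above both siNT values. Cox7b, with a log2 fold change of 0.13 (95% confidence interval -0.01 to 0.26, adjusted p = 0.153), did not pass; it has 2 near-identical pseudogenes. The 2 most abundant members of the complex, Cox4i1 at 524 FPKM and Cox7c at 415, had log2 fold changes of -0.08 and -0.03 (adjusted p = 0.284 and 0.780). The complex as a whole took 0.159% and 0.148% of all counts in siNT and 0.167% and 0.164% in siCnot1, a ratio of 1.08 that was 1.00 with effective library sizes.

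**Figure D3:**
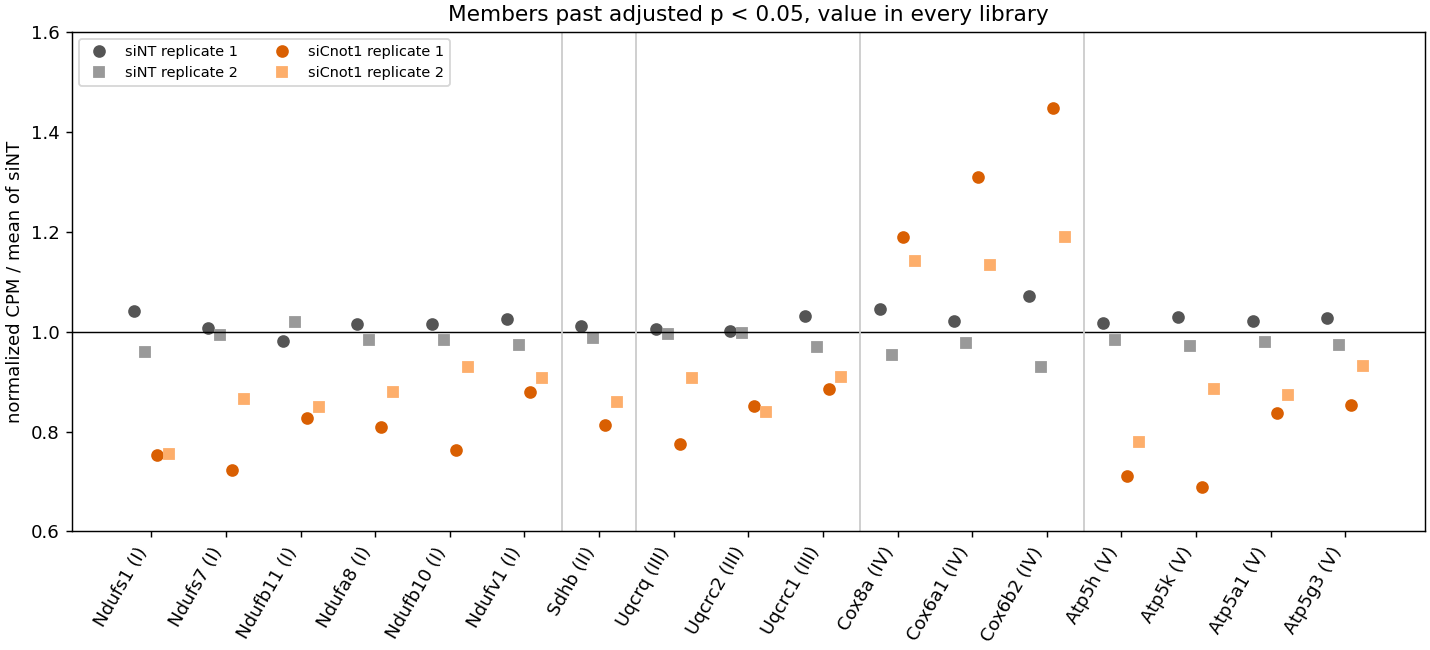
Normalized CPM of 17 of the 18 called members in each of the 4 libraries, divided by the siNT mean of the gene, with the complex in brackets. In every one of the 17, chosen by adjusted p on these same libraries, the siCnot1 points stand on one side of both siNT points. Both siCnot1 libraries lay below both siNT libraries for 31.2% of all tested genes and above them for 32.7%. In 16 of the 17 called members shown, siCnot1 replicate 1 lies farther from the siNT mean than replicate 2.

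Of all tested genes 14.7% fell and 15.0% rose. Complex V, the ATP synthase, had 17 members, all tested, of which 4 fell (23.5%), none rose and 13 did not pass. Its median was -0.12, and 16 of the 17 estimates were below 0, against 8880 of all 18144 tested genes. Both siCnot1 libraries lay below both siNT libraries for 13 genes (76.5%, against 31.2% of all tested genes). With library totals this held for only 4 (23.5%, against 21.0%), and the median was then -0.02. Atp5h, subunit d of the peripheral stalk (GRCm39 chromosome 11, 115306517 to 115310745, minus strand), had 125 and 121 normalized CPM in siNT and 87.3 and 95.6 in siCnot1. It fell to 0.746 of the siNT level (log2 fold change -0.42, SE 0.0654, adjusted p = 2.87e-05). GENCODE M21 holds 4 pseudogenes of Atp5h that match it at 95% identity or more over at least 150 bases, and how reads with several matches were counted is not given in the sources used here, so its level is uncertain.

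Atp5a1, the catalytic head's alpha subunit, had 1274 and 1220 normalized CPM in siNT and 1044 and 1088 in siCnot1, a log2 fold change of -0.23 (SE 0.0528, adjusted p = 0.00212). Its partner Atp5b, the beta subunit, had the highest level per length of all members, 1063 FPKM, with 2108 and 2020 normalized CPM in siNT and 1907 and 1953 in siCnot1. The log2 fold change of Atp5b was -0.10 (95% confidence interval -0.20 to 0.01, adjusted p = 0.170), which did not pass although the groups did not overlap. Atp5k, subunit e at the dimer interface, had 17.5 and 16.5 in siNT and 11.8 and 15.1 in siCnot1, a log2 fold change of -0.34 (SE 0.130, adjusted p = 0.0482). It has 1 near-identical pseudogene. Atp5j2, the subunit f gene, at 248 FPKM, had a log2 fold change of -0.10 (adjusted p = 0.271).

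The 3 genes for subunit c of the rotor ring encode the same mature protein behind different import signals. Together they were spread almost evenly, with Atp5g1 at 28.7%, Atp5g2 at 36.0% and Atp5g3 at 35.4% of their summed level per length in siNT, and at 28.4%, 37.5% and 34.1% in siCnot1. Atp5g1 has 1 near-identical pseudogene, so these shares are uncertain. Atp5g3 had 274 and 259 normalized CPM in siNT and 227 and 248 in siCnot1, a log2 fold change of -0.16 (adjusted p = 0.0391). The log2 fold changes of Atp5g1 and Atp5g2 were -0.12 and -0.05 (adjusted p = 0.134 and 0.601), and whether the 3 genes differed from one another in their change was not tested. Atp5l, subunit g, was the member of complex V with an estimate above 0 (0.16, adjusted p = 0.0877); it was named after its values were seen and has 9 near-identical copies.

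Paralogues of complex IV with expression restricted to some tissues were low, apart from Cox6b2, as the plot of their levels shows. Cox6b2 made up 23.4% and 22.1% of the Cox6b level per length in siNT and 30.3% and 27.3% in siCnot1, the remainder being Cox6b1, whose log2 fold change was -0.06 (adjusted p = 0.555). Cox7b2, another gene best known from testis, was at 3.91% and 4.13% of the Cox7b set in siNT and at 3.51% and 3.01% in siCnot1. Cox4i2, the isoform linked to low oxygen and to lung, was at 0.161% to 0.275% of the Cox4i set, and Cox8c, also a testis isoform, at 0.243% to 0.414% of the Cox8 set. The log2 fold changes of Cox7b2, Cox4i2 and Cox8c were -0.18, -0.42 and 0.08 with standard errors of 0.279, 0.480 and 0.690, and none passed.

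The isoforms of heart and skeletal muscle were near the floor of 3 counts per library or little above it. Cox6a2 had 0, 0, 0 and 2 counts and Cox8b 0, 2, 0 and 0 in siNT replicates 1 and 2 and siCnot1 replicates 1 and 2. Cox7a1 had 5 and 5 counts in siNT and 13 and 10 in siCnot1, and Cox6c2, a relative of Cox6c, had 5 and 10 in siNT and 5 and 8 in siCnot1. These 4 members were too low to be tested, and 3 counts of a library, 0.0921 to 0.0934 CPM, are the limit that a count of 0 allows, for counting error only. Cox7a2, the general isoform, and Cox7a2l, which acts in joining complexes III and IV, shared most of the Cox7a set. Cox7a2l has 1 near-identical pseudogene. For 28.5% of its exon bases Cox7a2 overlaps Gm51685 on the other strand, which had 98 to 183 counts per library. Cox7a2 made up 53.9% ± 2.56 (SD, n = 2) in siNT and 58.0% ± 1.66 (SD, n = 2) in siCnot1, and Cox7a2l 43.8% and 47.4% in the siNT and 39.7% and 42.3% in the siCnot1 libraries. The log2 fold changes of Cox7a2 and Cox7a2l were 0.07 and -0.18 (adjusted p = 0.662 and 0.135).

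**Figure D4:**
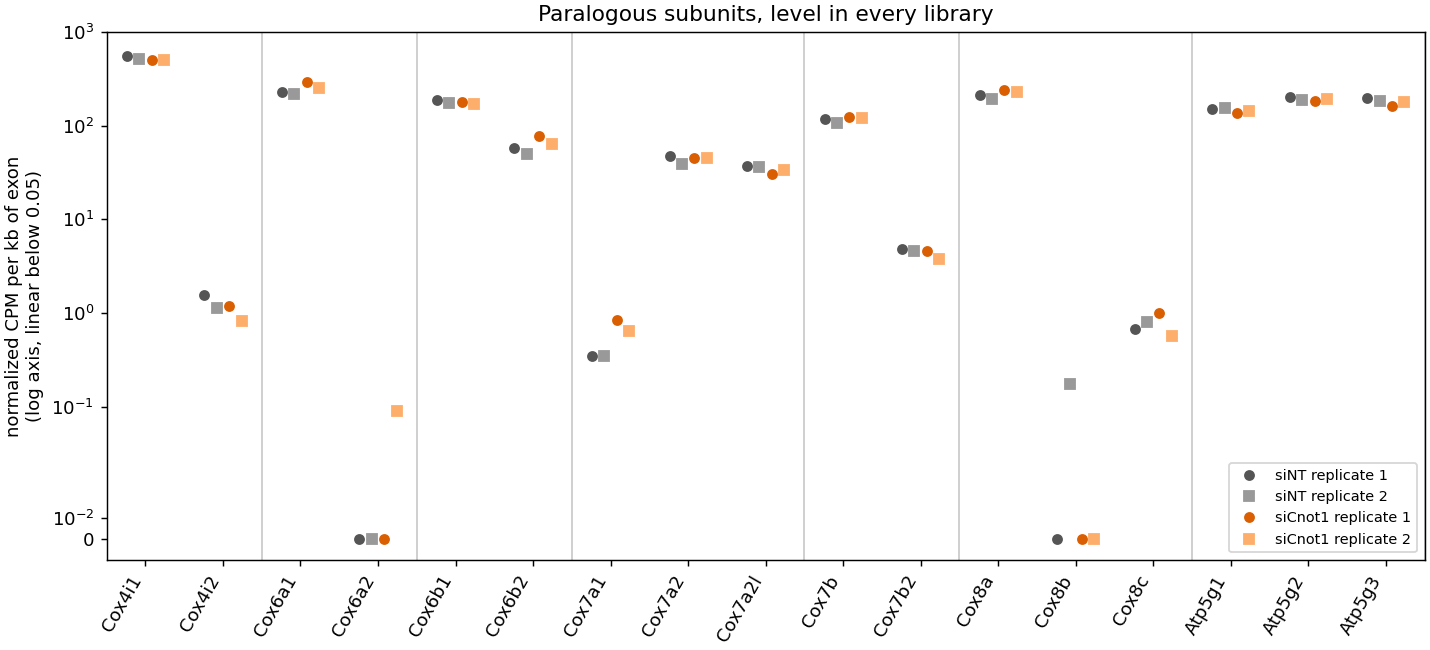
Normalized CPM per kb of exon of the paralogous subunits of complexes IV and V in each library, on a log axis that is linear below 0.05, with vertical lines between sets. Cox4i1 stands highest (508 to 562), and Cox6b2 averages 53.8 in siNT and 70.9 in siCnot1. Cox7b2, Cox4i2, Cox8c, Cox8b, Cox7a1 and Cox6a2 lie at 4.79 or below.

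Genes that serve the chain were read from lists of 127 further genes, 124 of which were tested; 25 fell and 8 rose. Over these lists 20.2% fell and 6.45% rose, beside 14.7% and 15.0% of all tested genes. Of 58 tested assembly factors 8 (13.8%) fell and 2 (3.45%) rose. For complex I, 2 of 18 fell: Acad9 (log2 fold change -0.32, adjusted p = 0.000786) and Ndufaf6 (-0.47, adjusted p = 0.00322), while Ndufaf5 (0.33, adjusted p = 0.0707) did not pass. None of the 4 factors of complex II passed, where Sdhaf1, Sdhaf2 and Sdhaf3 had -0.20, 0.06 and 0.11, and none of the 6 of complex III, where Uqcc1, Bcs1l and Uqcc3 had 0.20, -0.20 and 0.17. Beside these 0 of 10, 1 gene had an unadjusted p under 0.05. For complex IV, 4 of 25 fell and 2 rose, among them Higd1a (-0.54, adjusted p = 0.000435), Cox14 (-0.42, adjusted p = 0.0106) and Cox10 (0.37, adjusted p = 0.00753), the farnesyltransferase of heme a synthesis. For complex V, 2 of 5 fell: Atpaf1 (-0.40, adjusted p = 0.00472), which binds the beta subunit during assembly, and Oxa1l (-0.22, adjusted p = 0.0178), which inserts proteins into the inner membrane, while Tmem70 (-0.20, adjusted p = 0.114) did not pass.

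The carriers and regulators included larger changes than any member. Among 18 other subunits, electron carriers and ubiquinone genes 3 fell and 3 rose (16.7% each, against 14.7% and 15.0% of all tested genes). Cytochrome c (Cycs) had a log2 fold change of -0.23 (adjusted p = 0.00615), its testis form Cyct -0.67 (adjusted p = 0.0026), and Coq3, a methyltransferase of ubiquinone synthesis, -0.46 (adjusted p = 0.000382). The 3 that rose, named after their values were seen, were the ubiquinone synthesis genes Coq2 (0.34, adjusted p = 0.00975), Coq4 (0.44, adjusted p = 0.00859) and Coq8b (0.46, adjusted p = 0.0239). Of 11 tested regulators 2 fell (18.2%) and 1 rose (9.09%). Tfb2m, the factor that opens mitochondrial promoters, had 32.3 and 32.4 normalized CPM in siNT and 16.2 and 16.1 in siCnot1, a log2 fold change of -1.001 (adjusted p = 1.29e-07). Tfb1m, a methyltransferase of mitochondrial ribosomal RNA, had -0.44 (adjusted p = 0.00308), and Esrra, a nuclear receptor that acts on respiratory genes, 0.57 (adjusted p = 0.000498).

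Protein import and carrier genes included 10 of 23 that fell (43.5%) and none that rose. Among all tested genes 14.7% fell and 15.0% rose, and in the highest quartile by level 34.5% fell and 13.5% rose. The 10 included the outer membrane channels Vdac1 (-0.53, adjusted p = 9.76e-08) and Vdac3 (-0.36, adjusted p = 0.00012) and the ADP/ATP carrier Slc25a4 (-0.47, adjusted p = 4.27e-06). Of 14 genes of the citric acid cycle 2 fell and 2 rose (14.3% each). Mdh2, malate dehydrogenase, had 165 and 168 normalized CPM in siNT and 266 and 268 in siCnot1, a log2 fold change of 0.68 (adjusted p = 6.44e-09), and Idh2 one of 0.28 (adjusted p = 0.00098), while Sucla2, a subunit of succinyl-CoA ligase, had -0.38 (adjusted p = 5.65e-05).

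Of the 13 mRNAs that mitochondrial DNA encodes for the same complexes, 5 rose (38.5%) and 1 fell (7.69%), against 15.0% and 14.7% of all tested genes. COX1 and COX3 of complex IV had log2 fold changes of 1.10 (adjusted p = 3.57e-10) and 1.16 (adjusted p = 2.69e-09), and CYTB of complex III one of -0.39 (adjusted p = 5.34e-05). All genes of the mitochondrial chromosome took 1.17% and 1.401% of counts in siNT and 2.11% and 1.76% in siCnot1, and leaving them out moved the ratio of the members' share of counts, siCnot1 over siNT, from 1.00 to 1.01.

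The number of calls depended on which libraries were used, for the members and for all genes. Without siNT replicate 1, 2 members fell and none rose; without siNT replicate 2, 5 and none; without siCnot1 replicate 1, 4 and none; and without siCnot1 replicate 2, 8 and 2. Over all genes tested in these fits the share that fell was then 4.49%, 5.82%, 6.50% and 7.64%, and the share that rose 3.83%, 5.33%, 6.34% and 7.51%, in the same order. Ndufs1 and Atp5h fell under each of the 12 alternatives, with log2 fold changes from -0.47 to -0.30 and from -0.50 to -0.32. Each of the other 16 called members kept its call under only 4 to 9 of the 12 alternatives and kept its sign under all 12.

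**Figure D5:**
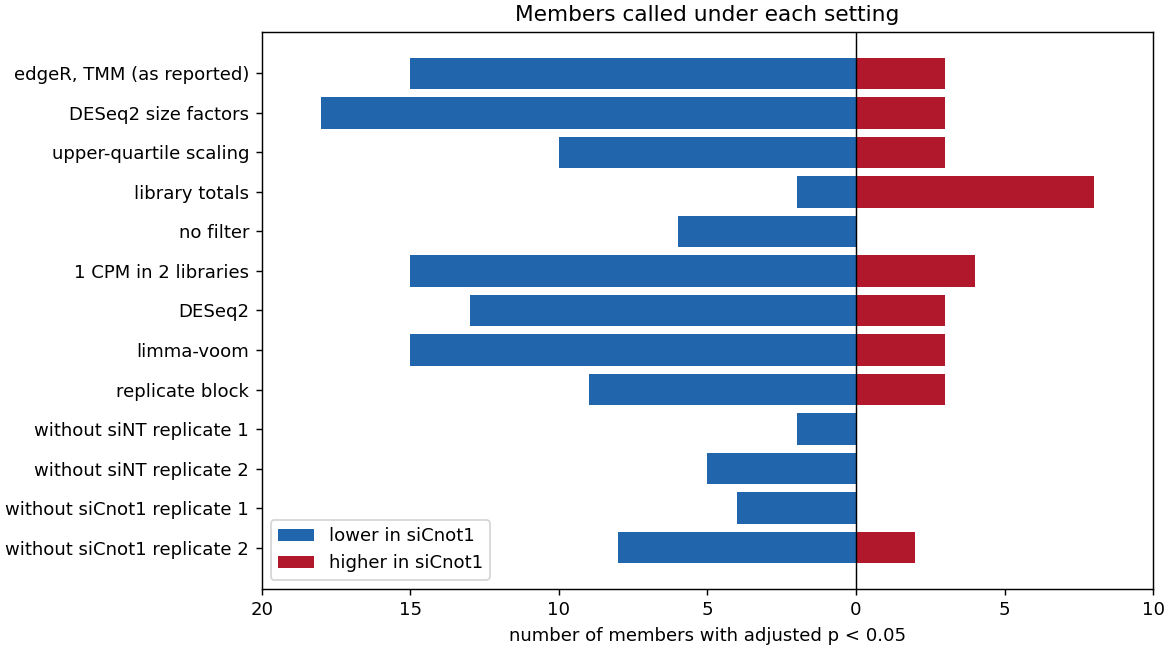
Number of members with an adjusted p under 0.05 that were lower (left) or higher (right) in siCnot1, for edgeR with TMM as reported and for each of the 12 alternatives. The count falls to 2 lower with library totals or without siNT replicate 1, and library totals give 8 higher.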

How the data were processed

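Mouse ESC RNA-seq libraries (2 siNT, 2 siCnot1) were compared. The authors deposited raw counts per gene, not normalized or pooled; the submitters' processing notes name fastp 0.19.4, HISAT2 2.2.1, DESeq2 1.40.2 and mm10, while positions in the deposited table match GRCm39 and the column layout is that of featureCounts. The counter, its strand setting and its treatment of reads with several matches are not given in the sources used here. The libraries were stranded (dUTP) and paired-end.

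Counts were filtered with filterByExpr (minimum count 10), scaled by TMM and tested with edgeR 4.0.16 (quasi-likelihood, two-sided, condition only, all 4 libraries) in R 4.3.3, with Benjamini-Hochberg adjustment over 18144 genes. Standard errors were the log2 fold change over the square root of F. The fit was checked on simulated data. Values per kb use the exon length in the table. Alternatives were other scalings and filters, DESeq2 1.42.0, limma-voom (limma 3.58.1), a replicate block and leaving out each library. Copies were sought in GENCODE M21 by sequence, exon overlaps in the deposited positions, and promoters by symbol. Near-identical copies were found for 21 of the 81 members searched, and 8 members shared over 20% of their exon bases with another gene. No protein sequences were used here.

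Members and gene lists were chosen with earlier results of these data known. Genes named were Cnot1, paralogue sets, complex II, per complex up to 5 called members in each direction and the 3 of highest FPKM, members at the floor, Ndufa4, and up to 3 genes per list with the smallest adjusted p; others are marked as named after their values were seen. The values of 1 member are not reported here, and it was counted in all totals.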

Additional observations from a re-analysis of the deposited data

How the results depend on the processing

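With library totals in place of TMM, 2 members fell and 8 rose, the members' median was 0.010, and the medians of complexes I to V were 0.023, 0.10, 0.018, 0.080 and -0.015; 1, 0, 0 and 1 members of complexes I, II, III and V fell, and 3 of complex I and 1 of complex V rose. Groups apart then numbered 16 below and 20 above. The log2 fold changes of Atp5b (0.010), Atp5g2 (0.056), Atp5j2 (0.0045), Cox4i1 (0.023), Cox6b1 (0.046), Cox7c (0.080), Ndufa4 (0.082), Ndufb4 (0.087), Sdhc (0.10) and Uqcrh (0.073) changed sign; none of these 10 had been called. Without a filter 6 members fell (7.06%) and 0 rose (edgeR), against 4.78% and 4.30% of all genes in that fit. Lower members numbered 2, 1 and 2 in complexes I, III and V, and 0 were higher in complex IV. More genes were then tested. Upper-quartile scaling left 2 lower in complex V, and 13.4% of all genes were then lower. A minimum of 1 CPM in 2 libraries gave 1 higher in complex V, and 19.0% of all genes were then higher. The members' share of counts had a ratio of 0.933 with effective library sizes. Sdhc was at 0.0098 with upper-quartile scaling and 0.00068 with the CPM minimum, and Sdhd at -0.0037 with DESeq2 size factors, -0.0051 without a filter and -0.0066 with DESeq2. With limma-voom all 39 named genes kept direction and call. Causes were not tested.

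With replicate number as a block, 9 members fell (11.1%), 4 in complex I and 2 in complex V, and 3 rose (3.70%). The shares over all genes in that fit were 13.4% and 13.9%. Same-numbered libraries shared only a number (correlation of deviations 0.0109, 2 pairs).

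Leaving out 1 library at a time, with the lone library assumed to vary like the others, gave 2 to 8 lower and 0 to 2 higher members. Lower members numbered 1 to 3 in complex I, 0 to 1 in II, 0 to 1 in III and 1 to 3 in V, and higher ones 0 to 2 in IV. Medians ran from -0.15 to -0.0055 in complex I, -0.080 to 0.025 in II, -0.16 to -0.013 in III and -0.18 to -0.091 in V. Ranges that crossed 0 were -0.054 to 0.19 for Cox7a2, -0.074 to 0.014 for Cox7c, -0.39 to 0.43 for Cox8c, -0.078 to 0.023 for Ndufa4, -0.11 to 0.074 for Ndufb4, -0.12 to 0.15 for Ndufb6, -0.053 to 0.070 for Sdha, -0.11 to 0.074 for Sdhc, -0.090 to 0.092 for Sdhd, -0.22 to 0.0014 for Uqcrb and -0.094 to 0.021 for Uqcrh; none of these 11 had been called.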
